A study of Mus musculus with 3 samples.

Results

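The transcripts described here are those encoded by the mitochondrial genome, taken as every gene whose symbol starts with mt- in the 3 deposited tables. They number 37 of 33700 genes: 13 typed as protein_coding, 2 as Mt_rRNA and 22 as Mt_tRNA. All 37 were above 0 in every library and passed the filter used throughout, a mean of at least 1 RPKM over the libraries. RPKM is the read number scaled to gene length and to a library total.

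The cells were splenic B cells of C57BL/6 mice without CD43, a surface protein of activated B cells and many other leukocytes. They were cultured for 3 days with lipopolysaccharide (LPS), a bacterial activator of B cells, and interleukin-4 (IL4), and with a drug or with DMSO, a solvent. The groups were JQ1+ at 80 nM, flavopiridol at 30 nM, and DMSO, with 1 library each; all carried LPS and IL4. JQ1 displaces BET bromodomain proteins from acetylated chromatin, and flavopiridol inhibits cyclin-dependent kinases, including the one that releases paused nuclear RNA polymerase. The compounds are not related in structure, and the doses differ. One label, the culture description, reads the same for all 3 samples and names DMSO; the groups were taken from the treatment label. The labels do not say how many mice gave the cells or if the cultures shared them.

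Each group is 1 library, so differences could not be set against replicate spread and no tests were made. "Rose" and "fell" are used below for a log2 change, computed after adding 1 to each RPKM, that reached 1 or -1. Ratios are of plain RPKM and carry 95% intervals that cover counting error only. In bulk RNA fewer cells of a type and less RNA per cell cannot be told apart, nor can fewer mitochondria and less RNA in each. The counts summed to 51247080 in the JQ1+ library, 50184508 in the flavopiridol library and 59786847 in the DMSO library. All 8 B cell markers were expressed, Pax5 at 168, 164 and 137 RPKM with JQ1+, flavopiridol and DMSO. Of 6 T cell markers only 1 passed the filter, Trac at 1.09, 1.76 and 1.67 RPKM. Cd3e of T cells was at or below 0.07 RPKM in each library. The 8 B cell markers summed to 74398 RPKM with JQ1+, 34919 with flavopiridol and 46930 with DMSO, most of it Ighm. The T cell markers summed to 2.52, 2.69 and 2.51 RPKM, the myeloid ones to 19.8, 33.5 and 28.3, the erythroid ones to 2.8, 5.52 and 6.95, and the NK and cytotoxic ones to 1.99, 1.61 and 3.00. S100a8 and Ncr1 were at 0 in all 3 libraries. Emr1, a macrophage marker, stood at 0.80, 9.47 and 0.92 RPKM with JQ1+, flavopiridol and DMSO. The part of these cells in the results below was not tested.

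Mammalian mitochondrial DNA is a small circle that is transcribed along both strands into long precursors by its own polymerase, Polrmt, with the factors Tfam and Tfb2m. Transfer RNAs lie between most messenger and ribosomal RNAs, and cutting the precursor at the tRNAs releases the RNAs on either side. The proteins made from these RNAs are core subunits of respiratory chain complexes I, III, IV and V, which also need many subunits encoded in the nucleus. Activated B cells increase mitochondrial mass and respiration as they grow and divide.

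Mitochondrial RNA took 4.48% of all counts with JQ1+ (Clopper-Pearson interval 4.479 to 4.490%), 4.74% with flavopiridol (4.730 to 4.742%) and 3.90% with DMSO (3.894 to 3.904%). Both drug libraries stood above DMSO. Messenger RNAs took 2.95%, 3.03% and 2.50% of counts with JQ1+, flavopiridol and DMSO, ribosomal RNAs 1.5%, 1.68% and 1.37%, and tRNAs 0.029%, 0.030% and 0.024%. The denominator matters, because the deposited counts sum to 2.72, 2.92 and 2.84 times the library total behind the RPKM. Against that total the same mitochondrial counts made 12.2%, 13.8% and 11.1%, lowest in DMSO. All counts together exceed that total, so these values are not shares of a library, and they reuse the same counts. The intervals above use the deposited counts as they are, and so are too narrow for counting error.

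Among the 13 mRNAs no member rose or fell with either drug. Of all 14790 genes tested, 7.27% passed that threshold with JQ1+, 1.98% upward and 5.29% downward. With flavopiridol 6.43% passed it, 3.55% upward and 2.88% downward. The changes of the mRNAs were small, and nearly all had the same sign. With JQ1+ 12 of 13 stood above DMSO, with a median log2 change of 0.37, against a median of -0.08 over all genes tested, of which 40.2% stood above 0. With flavopiridol 13 of 13 stood above DMSO, with a median of 0.51, against 0.13 and 63.7% over all genes tested. The members share a genome and precursors, so they are not independent of each other. With flavopiridol 13 of 13 stood above DMSO under each of the 5 scalings tried besides the deposited one. With JQ1+ the exception, mt-Nd5, also lay above DMSO when libraries were rescaled by the median of ratios or to protein-coding counts.

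**Figure D1:**
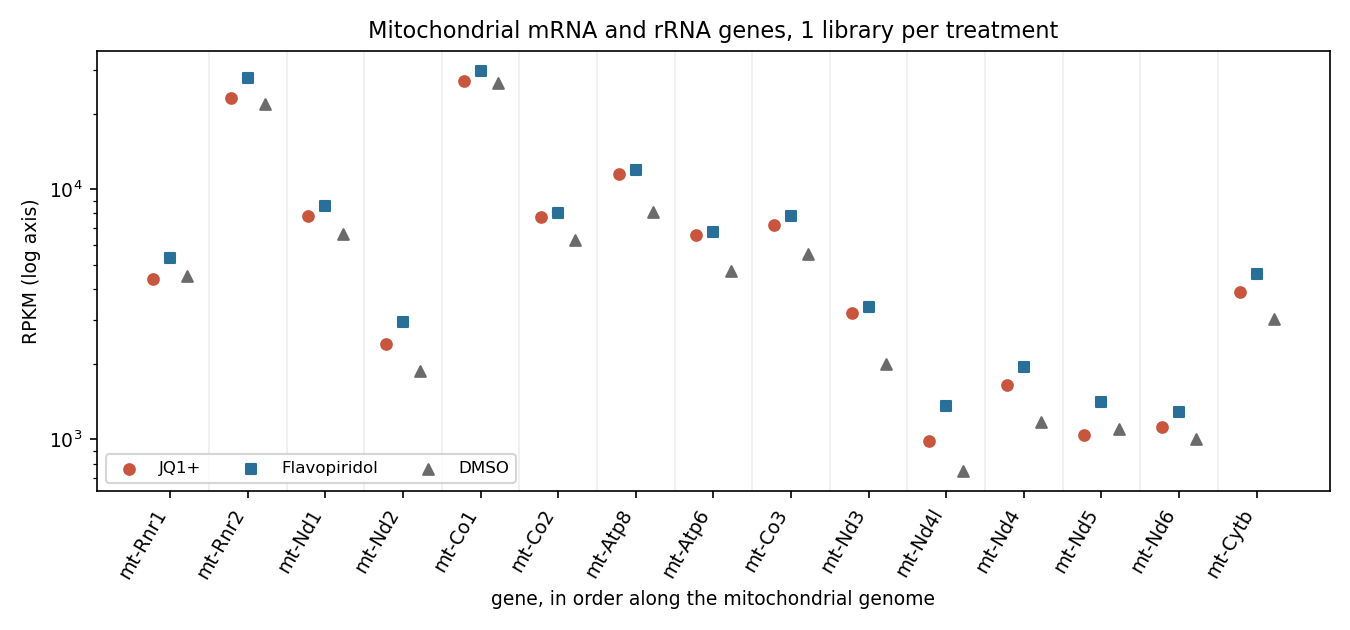
RPKM (log axis) of the 13 mitochondrial mRNAs and 2 rRNAs in order along the mitochondrial genome, 1 point per library (JQ1+ circles, flavopiridol squares, DMSO triangles). The flavopiridol point is the highest of the 3 at every gene, and the DMSO point is the lowest at all but mt-Rnr1 and mt-Nd5.

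Complex IV, cytochrome c oxidase, passes electrons to oxygen, and its catalytic subunit mt-Co1 was the highest of the genes typed protein_coding in all 3 libraries. Ighm, the antibody heavy chain gene, which has another type in the tables, stood above it with JQ1+ and DMSO. The level of mt-Co1 was 27129 RPKM with JQ1+, 29713 with flavopiridol and 26432 with DMSO. These are ratios to DMSO of 1.03 (interval 1.02 to 1.03) and 1.12 (1.12 to 1.13), the smallest of any mRNA with flavopiridol and the smallest above 1 with JQ1+. The copper-binding subunit mt-Co2 had 7768, 8065 and 6260 RPKM with JQ1+, flavopiridol and DMSO, and mt-Co3 had 7216, 7818 and 5512. Both therefore stood further above DMSO than mt-Co1, at log2 changes of 0.31 and 0.39 with JQ1+ and 0.37 and 0.50 with flavopiridol.

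Complex V, the ATP synthase, takes mt-Atp6 and mt-Atp8 from the mitochondrial genome. The gene mt-Atp8, a small subunit of the membrane part, had 11463 RPKM with JQ1+, 11938 with flavopiridol and 8123 with DMSO. The gene mt-Atp6, which forms part of the proton channel, had 6563, 6712 and 4704 RPKM in the same order. Both genes were 1.40 to 1.47 times DMSO in the drug libraries. They lie on 1 messenger RNA and their reading frames overlap, and the sequence of mt-Atp8 is shown for that reason (GENCODE M21 transcript, GRCm38, plus strand of the mitochondrial chromosome), with the 43 bases that are also the start of mt-Atp6 in capitals:
mt-Atp8: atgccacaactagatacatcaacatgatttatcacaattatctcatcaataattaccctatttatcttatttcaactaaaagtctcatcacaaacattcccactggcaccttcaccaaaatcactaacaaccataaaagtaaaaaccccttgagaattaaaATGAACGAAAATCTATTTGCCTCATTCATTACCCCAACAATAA
The ratio of mt-Atp8 to mt-Atp6 in RPKM was 1.75 with JQ1+ (interval 1.71 to 1.78), 1.78 with flavopiridol (1.74 to 1.81) and 1.73 with DMSO (1.69 to 1.77). The 3 intervals overlap. How reads in the shared bases were counted is not given in the sources used here.

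Complex III holds 1 mitochondrially encoded subunit, mt-Cytb, which carries the haems of the bc1 complex. It had 3882 RPKM with JQ1+, 4563 with flavopiridol and 3042 with DMSO, at ratios to DMSO of 1.28 (interval 1.25 to 1.30) with JQ1+ and 1.5 (1.48 to 1.52) with flavopiridol. It was the median gene of the 13 by level in each library.

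Complex I, the NADH dehydrogenase, takes 7 subunits from the mitochondrial genome, which lie in its membrane arm, and these spanned the widest range of changes. The highest, mt-Nd1, had 7834 RPKM with JQ1+, 8541 with flavopiridol and 6639 with DMSO. The gene mt-Nd2 had 2407, 2941 and 1869 RPKM in the same order. The gene mt-Nd3 had 3198, 3383 and 1999 RPKM, at 1.6 times DMSO with JQ1+ (interval 1.54 to 1.66) and 1.69 times with flavopiridol (1.63 to 1.76). Its log2 change of 0.68 was the largest of any mRNA with JQ1+.

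The gene mt-Nd5, for a proton-pumping subunit, stood just below DMSO with JQ1+ as deposited. It stood at 1046 RPKM with JQ1+, 1408 with flavopiridol and 1098 with DMSO, a ratio of JQ1+ to DMSO of 0.95 (interval 0.93 to 0.98) against 1.28 with flavopiridol (1.25 to 1.31). The gene mt-Cytb, encoded downstream on the same strand, was 3.71 times mt-Nd5 with JQ1+ (3.63 to 3.79), 3.24 times with flavopiridol (3.18 to 3.30) and 2.77 times with DMSO (2.72 to 2.83). A ratio of 2 genes in 1 library does not depend on the library total. The gene mt-Nd6, the mRNA encoded on the minus strand, had 1120 RPKM with JQ1+, 1290 with flavopiridol and 1006 with DMSO, ratios of 1.11 and 1.28. The use of strand in counting is not given in the sources used here, so reads of mt-Nd6 and of the opposite strand, which carries 14 bases of mt-Nd5 there, cannot be told apart.

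Both mt-Nd4 and mt-Nd4l are read from 1 messenger RNA. The gene mt-Nd4 had 1648 RPKM with JQ1+, 1956 with flavopiridol and 1179 with DMSO, and mt-Nd4l 989, 1360 and 748. The mt-Nd4l log2 change of 0.86 with flavopiridol was the largest of any mRNA in either drug library. Its values are uncertain, because the tables also list Gm10222, a gene typed protein_coding whose transcript matches 294 of the 297 bases of mt-Nd4l with 100% identity. The sequence of mt-Nd4l is shown because it is shared in this way, with the 7 bases that overlap mt-Nd4 in capitals (GENCODE M21, GRCm38, plus strand):
mt-Nd4l: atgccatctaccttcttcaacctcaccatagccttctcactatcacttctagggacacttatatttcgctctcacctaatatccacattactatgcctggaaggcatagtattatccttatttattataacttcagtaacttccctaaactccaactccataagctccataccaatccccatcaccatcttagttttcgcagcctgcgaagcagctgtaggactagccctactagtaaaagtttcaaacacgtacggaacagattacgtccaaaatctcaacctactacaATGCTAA
Gm10222 had 633 RPKM with JQ1+, 868 with flavopiridol and 479 with DMSO. Its counts were 63.9%, 63.8% and 64.0% of those of mt-Nd4l, an almost fixed share. The gene mt-Nd4l alone was 0.60, 0.70 and 0.63 times mt-Nd4 with JQ1+, flavopiridol and DMSO, and the sum of mt-Nd4l and Gm10222 was 0.98, 1.14 and 1.04 times mt-Nd4. With the copy added the log2 changes of mt-Nd4l stayed at 0.40 with JQ1+ and 0.86 with flavopiridol. Adding an almost fixed share could hardly change them, so this does not lessen the uncertainty.

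The other nuclear copies that were found carried little. A search of 32860 other genes of the tables by blastn found 9 whose transcript matched a mitochondrial gene over at least 100 bases at 80% identity or more. Their counts, Gm10222 included, came to 0.355%, 0.391% and 0.322% of the mitochondrial counts with JQ1+, flavopiridol and DMSO. Gm13340, 97.6% identical to mt-Co1, had 0.32%, 0.36% and 0.31% of the mt-Co1 counts. Listed genes without a GENCODE M21 transcript were not searched, and copies that are not listed were not analysed here. How reads with several matches were counted is not given.

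The order of the mRNAs by level was the same in the 3 libraries from the first place to the tenth. The gene mt-Co1 led, followed by mt-Atp8, mt-Nd1, mt-Co2, mt-Co3, mt-Atp6, mt-Cytb, mt-Nd3, mt-Nd2 and mt-Nd4. The last 3 places went, in differing order, to mt-Nd5, mt-Nd6 and mt-Nd4l. The highest mRNA was 27.4 times the lowest with JQ1+, 23.0 times with flavopiridol and 35.3 times with DMSO. As a share of the summed mRNA RPKM, mt-Co1 made 33.0% with JQ1+, 33.1% with flavopiridol and 38.5% with DMSO. The largest gain was that of mt-Atp8, which made 13.9%, 13.3% and 11.8%, and mt-Nd3 made 3.89%, 3.77% and 2.91%. Complex IV subunits together made 51.2%, 50.8% and 55.7% of the mRNA RPKM.

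**Figure D2:**
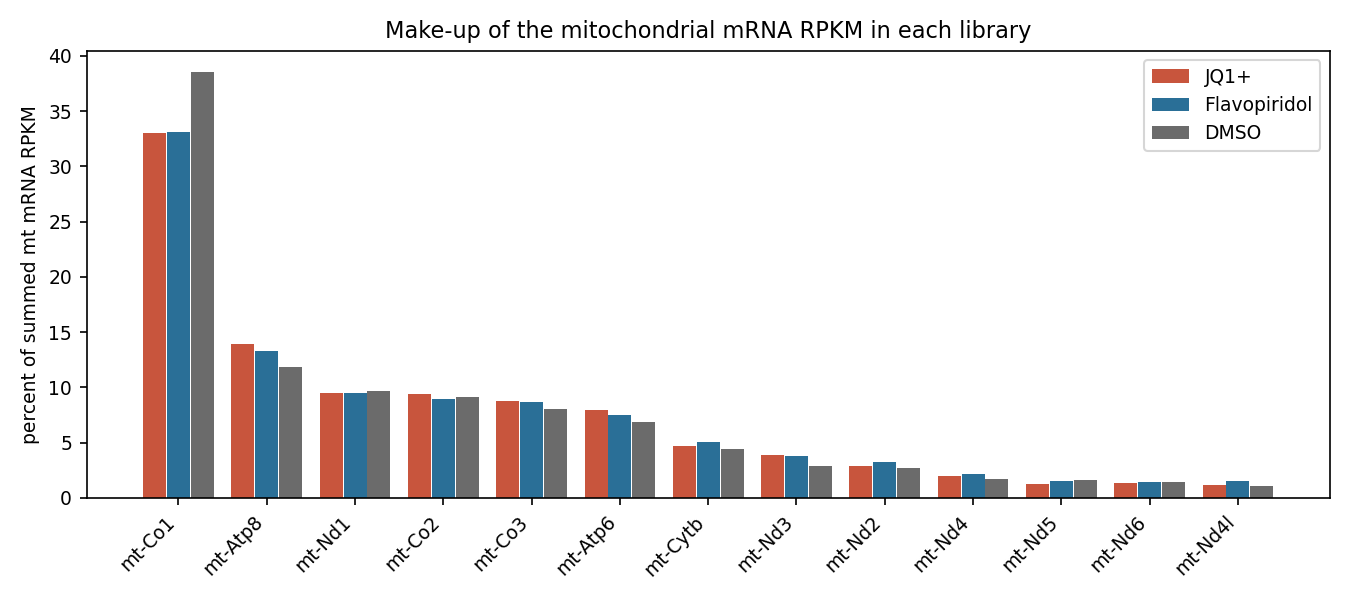
Each mitochondrial mRNA as a percentage of the summed RPKM of the 13 in its library, ordered by the DMSO value, with 1 bar per library (JQ1+, flavopiridol, DMSO from left to right). The gene mt-Co1 takes 33.0% and 33.1% in the drug libraries and 38.5% in DMSO.

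The ribosomal RNAs form the mitochondrial ribosome. The small subunit RNA, mt-Rnr1, had 4367 RPKM with JQ1+, 5312 with flavopiridol and 4487 with DMSO, ratios to DMSO of 0.97 (interval 0.96 to 0.99) and 1.18 (1.17 to 1.20). The large subunit RNA, mt-Rnr2, had 23179, 27823 and 21887 RPKM, ratios of 1.06 (1.05 to 1.06) and 1.27 (1.26 to 1.28). Neither rose or fell, and with JQ1+ the sign of mt-Rnr1 turned when libraries were rescaled by the median of ratios, by count sums or to protein-coding counts. The gene mt-Rnr2 was 5.31 times mt-Rnr1 with JQ1+, 5.24 times with flavopiridol and 4.88 times with DMSO. Ribosomal RNA had been removed with a Ribo-Zero kit before sequencing. If the kit also acted on these mitochondrial RNAs, their levels are what it left. A difference in removal then cannot be told apart from one in the cells.

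The tRNA genes are short, between 59 and 75 bases, and gave few reads. Together they had 15070 counts with JQ1+, 15147 with flavopiridol and 14483 with DMSO, and 4 of 22 had fewer than 100 counts in DMSO. Mature tRNAs are poorly captured by standard RNA libraries, and a fragment of a precursor or of a neighbouring RNA that reaches into the gene counts as well. A run of neighbouring genes on the minus strand stood far above the others, and since the use of strand is not given, their reads and those of the opposite strand cannot be told apart. The gene mt-Ta, for alanine, had 3049 RPKM with JQ1+, 3420 with flavopiridol and 2873 with DMSO. The gene mt-Tn, for asparagine, had 1786, 2169 and 1596 RPKM, and mt-Tc, for cysteine, 2245, 2455 and 1939. The 3 genes held 60.7%, 62.5% and 63.9% of the tRNA counts with JQ1+, flavopiridol and DMSO. The other 19 ranged between 20.4 and 775 RPKM with JQ1+, 23.6 and 937 with flavopiridol, and 10.2 and 727 with DMSO.

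The sequences of these 3 and of the 3 tRNA genes that passed the threshold with flavopiridol are shown on their coding strand (GENCODE M21, GRCm38; mt-Tf lies on the plus strand of the mitochondrial chromosome, the others on the minus strand). Capitals mark the anticodon, found as the known triplet flanked by a stem of 5 possible pairs, G with T included:
mt-Ta: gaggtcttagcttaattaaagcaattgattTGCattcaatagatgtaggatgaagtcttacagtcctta
mt-Tn: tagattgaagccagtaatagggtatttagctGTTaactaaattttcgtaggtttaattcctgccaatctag
mt-Tc: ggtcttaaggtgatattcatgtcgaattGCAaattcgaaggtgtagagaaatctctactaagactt
mt-Tf: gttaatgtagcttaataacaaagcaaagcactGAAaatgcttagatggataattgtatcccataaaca
mt-Ts1: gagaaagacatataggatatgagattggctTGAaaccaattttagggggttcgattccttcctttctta
mt-Te: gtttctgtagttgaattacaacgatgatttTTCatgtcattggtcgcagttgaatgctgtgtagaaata

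Of the 22 tRNA genes none rose or fell with JQ1+ (mt-Ts1 reached 1.02 under the median of ratios), and 3 rose with flavopiridol, where 3.55% of all genes tested rose. The gene mt-Ts1, a serine tRNA gene that overlaps the end of mt-Co1 on the other strand, had 20.4 RPKM with JQ1+, 23.6 with flavopiridol and 10.2 with DMSO. These rest on 27, 28 and 15 counts, and the flavopiridol ratio of 2.31 has an interval of 0.72 to 8.31. The gene mt-Tf, for phenylalanine, the first gene after the control region, had 68.7, 105.4 and 49.6 RPKM, a flavopiridol ratio of 2.12 (1.27 to 3.64). The gene mt-Te, for glutamate, had 343, 413 and 205 RPKM, a flavopiridol ratio of 2.01 (1.57 to 2.59). Leaving the 4 most counted structural RNAs out of the total put mt-Te at 0.98 on the log2 scale. All 3 calls were lost when libraries were rescaled by the median of ratios, by count sums or to protein-coding counts. The share of all genes tested that passed under these scalings is not given here. By count sums, 1 was added to values not divided by gene length, which shrinks the change of short genes with few counts. With flavopiridol mt-Ts1, mt-Tf and mt-Te then stood at 0.32, 0.66 and 0.84, against 1.14, 1.07 and 1.01 as deposited. The loss by count sums therefore does not show the effect of scaling alone.

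The median log2 change of the 22 was 0.33 with JQ1+ and 0.40 with flavopiridol, and 20 of 22 stood above DMSO in each, 17 with flavopiridol under median-of-ratios or protein-coding scaling. Counting intervals excluded a ratio of 1 for 10 of 22 with JQ1+ and 11 of 22 with flavopiridol, against 13 of 13 mRNAs in each drug. With JQ1+ the values ranged between -0.40 for mt-Tt, for threonine, and 0.93 for mt-Ts1. The gene mt-Tm, for methionine, stood at 242 RPKM with JQ1+, 185 with flavopiridol and 129 with DMSO, a JQ1+ ratio of 1.87 (1.37 to 2.57). The gene mt-Tl2, a leucine tRNA gene just before mt-Nd5, stood at 242, 134 and 135 RPKM, a JQ1+ ratio of 1.80 (1.33 to 2.45) and a flavopiridol ratio of 0.995 (0.69 to 1.43). The 8 genes on the minus strand had median levels of 567, 691 and 480 RPKM with JQ1+, flavopiridol and DMSO, and the 14 on the plus strand 143, 128 and 104.

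**Figure D3:**
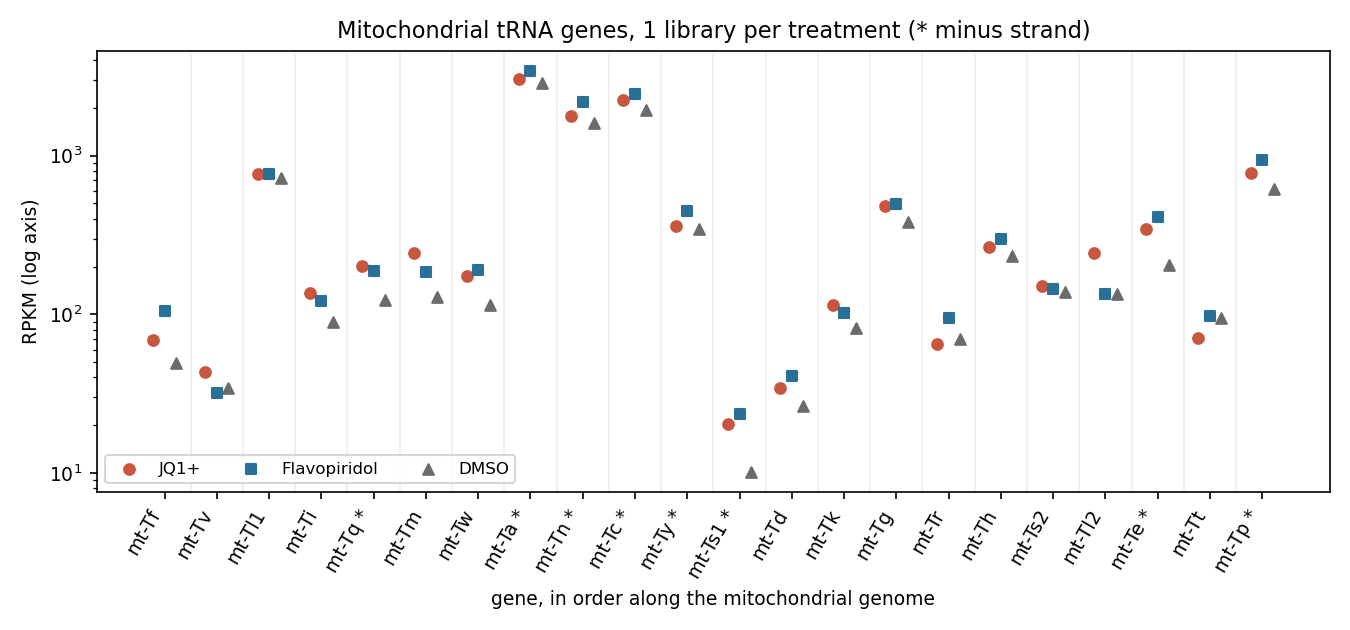
RPKM (log axis) of the 22 mitochondrial tRNA genes in order along the mitochondrial genome, 1 point per library (JQ1+ circles, flavopiridol squares, DMSO triangles), with genes on the minus strand starred. The highest 3 in each library are mt-Ta, mt-Tn and mt-Tc, and mt-Ts1 is the lowest at 10.2 to 23.6 RPKM.

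**Figure D4:**
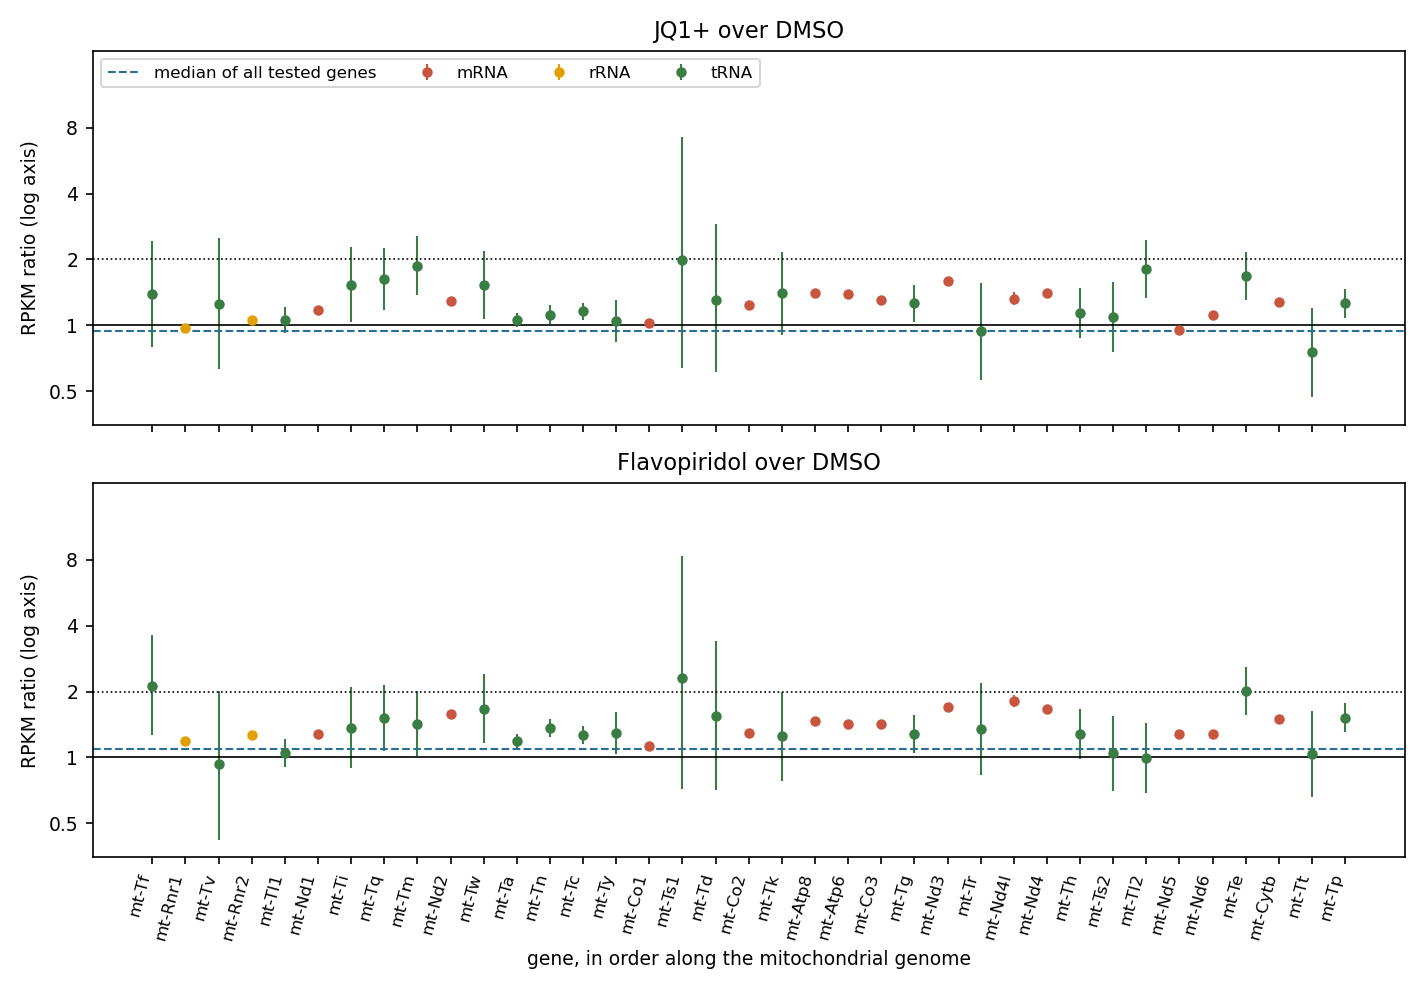
RPKM ratio to DMSO (log axis) of all 37 genes with JQ1+ (upper panel) and flavopiridol (lower panel), in order along the mitochondrial genome. Bars are 95% intervals for counting error only, the dotted line is a ratio of 2 and the dashed line the median of all genes tested. The mRNAs lie between 0.95 and 1.6 with JQ1+ and between 1.12 and 1.82 with flavopiridol, and the tRNA intervals are the widest.

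JQ1+ was also set against flavopiridol directly. The median log2 change of the mRNAs was -0.13, against -0.21 over all genes tested. Of all genes tested only 30.1% stood above 0, and 13 of 13 mRNAs stood below flavopiridol as deposited. This sign depended on the scaling: with the median of ratios 9 of 13 stood above flavopiridol, to protein-coding counts 7 of 13, and by count sums 4 of 13. None of the 37 passed the threshold, which 8.92% of all genes tested passed, 2.06% upward and 6.87% downward. With the median of ratios or protein-coding scaling mt-Tl2 passed it, at 1.08 and 1.01. The share of all genes tested that passed under those scalings is not given here. The largest differences were those of mt-Tl2, with a log2 change of 0.85, mt-Tf (-0.61), mt-Tr (-0.53), for arginine, and, among mRNAs, mt-Nd4l (-0.46) and mt-Nd5 (-0.43). The comparisons with DMSO share the DMSO library, so likeness between the drugs there is in part built in.

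By their medians, nuclear genes for subunits of the same complexes were closer to DMSO than the mitochondrial ones. The 36 nuclear complex I subunits had a median log2 change of -0.01 with JQ1+ and 0.24 with flavopiridol, none past the threshold, against 0.37 and 0.65 for the 7 mitochondrial ones. The 9 of complex III had medians of 0.09 and 0.37, and mt-Cytb 0.35 and 0.58. The 16 of complex IV had -0.02 and 0.25, against 0.31 and 0.37 for mt-Co1 to mt-Co3, and the 16 of complex V 0.10 and 0.38, against 0.49 and 0.53. In the complex IV list 2 members fell with JQ1+ and 1 of them with flavopiridol, where 5.29% and 2.88% of all genes tested fell. Cox6a2, a subunit known from heart and skeletal muscle, had 0.81 RPKM with JQ1+, 12.1 with flavopiridol and 58.3 with DMSO, log2 changes of -5.04 and -2.18. Cox6b2, known as the testis form, had 1.83, 4.12 and 5.35 RPKM and fell with JQ1+ (-1.17). The 4 subunits of complex II, which has no mitochondrially encoded subunit, had medians of 0.12 and 0.40. These differences between nuclear and mitochondrial subunits were not tested.

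**Figure D5:**
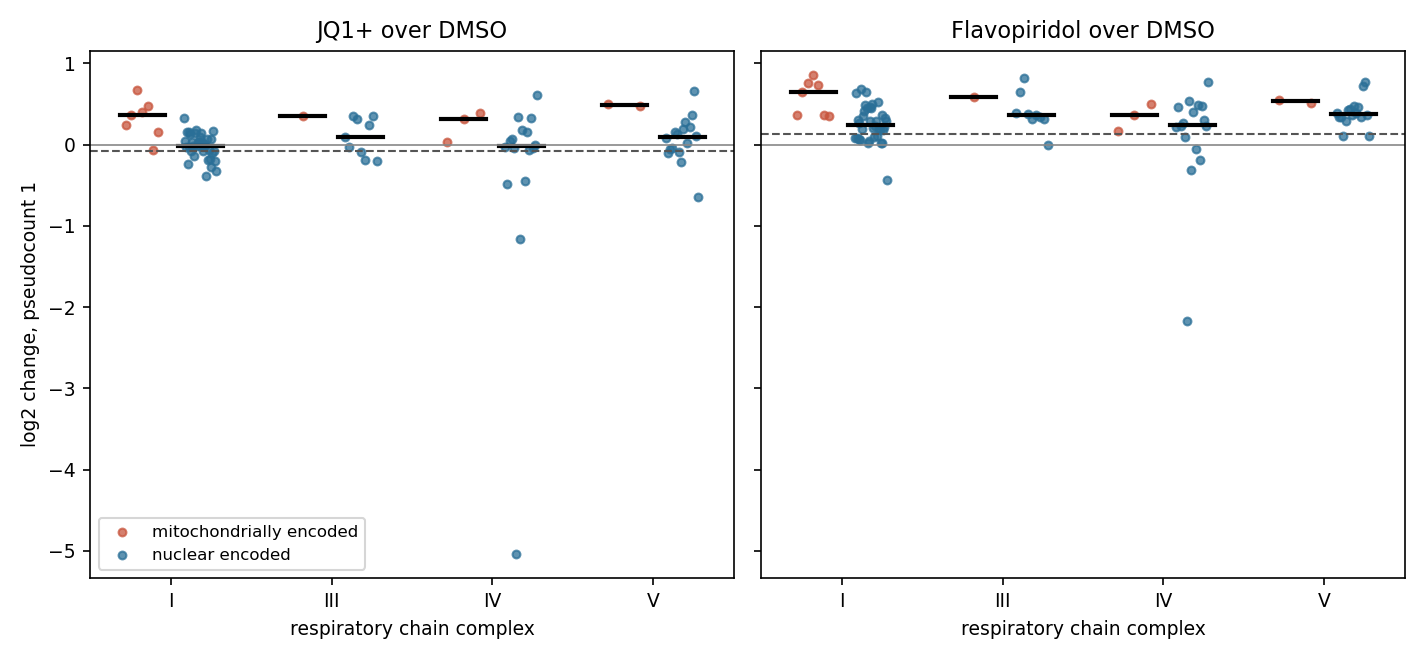
Log2 change against DMSO (pseudocount 1) of mitochondrially encoded and nuclear-encoded subunits of complexes I, III, IV and V, 1 point per gene, with JQ1+ (left) and flavopiridol (right). Black bars are medians and the dashed line is the median of all genes tested. The mitochondrial median lies above the nuclear one in all 4 complexes in both panels, and Cox6a2 is the nuclear gene at -5.04 and -2.18.

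Genes that copy and transcribe mitochondrial DNA had a median log2 change of -0.04 with JQ1+ and 0.40 with flavopiridol over 15 members, none past the threshold. Polrmt, the polymerase, had 13.8, 17.8 and 14.2 RPKM with JQ1+, flavopiridol and DMSO. Tfam, which bends and packages the DNA, had 25.4, 32.0 and 31.3 RPKM, and Tfb2m, which opens the promoter, 21.7, 34.6 and 21. The members furthest from DMSO were the mitochondrial topoisomerase Top1mt (-0.72), the elongation factor Tefm (-0.32) and Polg2 (0.29), the accessory subunit of the DNA polymerase, with JQ1+. They were the nuclease Mgme1 (0.86), the helicase Peo1 (0.72) and Tfb2m (0.70) with flavopiridol.

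Genes that process, stabilise and degrade mitochondrial RNA had medians of -0.20 and 0.44 over 21 members, and 1 of 21 rose with flavopiridol, a share near the 3.55% of all genes tested. That was Fastkd2 (1.01), which is needed for assembly of the large mitochondrial ribosomal subunit, at 14.8, 30.8 and 14.8 RPKM. Lrpprc, which keeps mitochondrial mRNAs stable, had 48.4, 75.9 and 44.9 RPKM with JQ1+, flavopiridol and DMSO, and its partner Slirp 68.7, 89.7 and 78.6. Pnpt1, a subunit of the RNA-degrading complex, was the furthest from DMSO with JQ1+ (-0.64).

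The proteins of the mitochondrial ribosome and the mitochondrial tRNA synthetases are made from nuclear genes. The 76 ribosomal protein genes had medians of -0.13 and 0.45, and 2 rose with flavopiridol, Mrpl49 (1.16) and Mrpl42 (1.14), a share no higher than the 3.55% of all genes tested. The 17 synthetase genes had medians of -0.07 and 0.28, none past the threshold. Among genes of the mitochondrial unfolded protein response, with medians of -0.13 and 0.40 over 13 members, the chaperonin Hspd1 rose with flavopiridol (1.10) and the transcription factor Atf5 fell with JQ1+ (-1.31). Of 8 tested regulators of mitochondrial biogenesis, with medians of -0.22 and 0.12, Myc fell with JQ1+, at 76.2 RPKM with JQ1+, 243 with flavopiridol and 194 with DMSO. Hspd1, Atf5 and Myc were each the only call of that drug against DMSO in their list. Of all genes tested 3.55% rose with flavopiridol and 5.29% fell with JQ1+.

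Some properties of the genes and libraries were set beside these values. The mitochondrial mRNAs have a low GC content, 31.9 to 41.1%, and 1397 other tested genes in that range had a median log2 change of 0.01 with JQ1+ and 0.24 with flavopiridol. The 218 non-mitochondrial protein-coding genes averaging 500 RPKM or more had medians of -0.09 and -0.05. The 4 most counted small structural RNAs, Gm22179, Rpph1, Rn7sk and Rmrp, took 5.03%, 4.17% and 4.83% of counts with JQ1+, flavopiridol and DMSO. Leaving them out of the total gave mRNA medians of 0.36 and 0.49. Set against the genes of like GC content, the mRNA medians were 0.35 with JQ1+ and 0.27 with flavopiridol.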

How the data were processed

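Total RNA was extracted with Trizol and depleted of ribosomal RNA with Ribo-Zero, per the labels' protocols. The submitters' processing notes name the build mm9; no source used here names the aligner, counter or annotation, or says how strand and multiple matches were handled. Each library has 1 table of counts per gene, deposited by the authors without normalisation, and RPKM values, so named per the file headers, which the values show to be counts over gene length and a library total. The 3 tables were joined by Ensembl identifier.

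Where a symbol had more than 1 row, that of highest mean RPKM was used, which left 33605 symbols. The mean over the libraries reached 1 RPKM for 14790. Log2 changes were taken on RPKM + 1, a scale that shrinks the change of weakly expressed genes, and were called from 2-fold. With 1 library per group no count model was fitted. The total behind the RPKM was found from count, RPKM and GENCODE M21 length, which matched within 0.1% for 32 of the 37 genes and within 1.89% for the rest. Intervals are exact conditional binomial ones on counts divided by the ratio of count sum to that total, since the counts exceed it. They cover counting error only. They were run on simulated independent counts with a known total, which does not test the division used here or reads shared between genes. Shares carry Clopper-Pearson intervals on undivided counts, which makes them too narrow for counting error. Gene order, strand, overlaps and sequences come from GENCODE M21 (GRCm38) by identifier, so no positions are given.

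The members and gene lists were chosen with earlier results of these data known. Named are all members and, per list, up to 3 genes with the largest change in each comparison with DMSO plus Polrmt, Tfam, Tfb2m, Lrpprc and Slirp; Gm10222, Gm13340, Pax5, Cd3e, Ighm, Emr1, S100a8, Ncr1 and the structural RNAs were chosen after their values were seen. Some genes that this rule names are not reported here. Alternatives were the pseudocount, 4 scalings, 2 filters and a 1.5-fold call. Scaling without structural RNAs, GC content, level and nuclear copies were added after seeing the data. Versions were Python 3.11.15, pandas 2.3.3, NumPy 2.4.6, SciPy 1.17.1, matplotlib 3.10.9 and blastn 2.17.0.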

Additional observations from a re-analysis of the deposited data

How the results depend on the processing

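No paired analysis was possible because each group has 1 library and the labels carry no replicate numbers, and for the same reason no replicate could be left out. A pseudocount of 0.1, no filter, a filter of 5 RPKM and leaving mitochondrial genes out of the total moved no class median or count of calls beyond counting error. The scalings did, in the order median of ratios, count sum, protein-coding counts. The count-sum values were not divided by gene length, so the added 1 weighed more on short genes with few counts. Its tRNA medians and calls therefore mix this with the scaling. JQ1+ against DMSO gave mRNA medians of 0.46, 0.43 and 0.46, and rRNA medians of 0.11, 0.085 and 0.11. Flavopiridol against DMSO gave mRNA medians of 0.37, 0.47 and 0.44, rRNA medians of 0.15, 0.25 and 0.22, and 0, 0 and 0 calls in place of 3. JQ1+ against flavopiridol gave mRNA medians of 0.10, -0.026 and 0.038, tRNA medians of 0.087, -0.026 and 0.022, and rRNA medians of -0.039, -0.17 and -0.10. The median of ratios gave 1 call with JQ1+ against DMSO and 1 against flavopiridol, and protein-coding scaling 1 against flavopiridol. The share of all genes tested that was called under these scalings is not given here. The counts of calls under them therefore have no background to be read against. The median of all genes tested stood at 0.13 with flavopiridol and -0.21 for JQ1+ against flavopiridol as deposited, and at -0.0011 and -0.0014 under the median of ratios. A 1.5-fold threshold called 8, 11 and 2 members in the 3 comparisons. The share of all genes tested at that threshold is not given here, so these counts have no background to be read against. Without the 4 structural RNAs flavopiridol against DMSO had an rRNA median of 0.27, and JQ1+ against flavopiridol medians of -0.11 for mRNAs and -0.25 for rRNAs. Less the median change of genes similar in GC content, the mRNA medians were 0.27 for flavopiridol against DMSO and 0.10 for JQ1+ against flavopiridol; minus that of genes at 500 RPKM or more they were 0.45, 0.57 and -0.061 in the 3 comparisons. The mitochondrial share with JQ1+, flavopiridol and DMSO was 3.67%, 3.60% and 3.05% for mRNAs over protein-coding counts. For all members it was 6.39%, 7.24% and 5.44% of summed RPKM. Mitochondrial counts made 12.2%, 13.8% and 11.1% of the total behind the RPKM. All counts together exceed that total, so these last values are not shares of a library. Apart from the shares' denominators, the cause of these movements was not tested. Depth limits the tRNA genes most, 4 of which had under 100 counts in DMSO.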
